A study of Homo sapiens with 4 samples.

Results

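The 9 genes described here encode RNA-binding proteins of pre-mRNA splicing. They are 6 heterogeneous nuclear ribonucleoprotein (hnRNP) genes, HNRNPH3, HNRNPA1, HNRNPA2B1, HNRNPK, HNRNPU and HNRNPC, and 3 serine/arginine-rich splicing factor genes, SRSF1, SRSF2 and SRSF3. Their peaks were found by position: every peak of the 3 full lists that overlapped the gene's hg19 span, widened by 2 kb on each side, was taken. This gave 113 of the 97318 peaks in all, 9 of 17887 for TAF3, 10 of 17975 for H3K4me3 and 94 of 61456 for RNAPII. The gene set was chosen by TAF3 fold enrichment at HNRNPH3, where the strongest TAF3 peak of the list lies, and by name for the other 8 with results of these data known. All values are therefore a description and none is tested.

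The data are chromatin immunoprecipitation sequencing of HCT116 cells, an established human colorectal carcinoma line. There is 1 library each for TAF3, for histone H3 trimethylated at lysine 4 (H3K4me3), for RNA polymerase II (RNAPII) and for input DNA without antibody. All libraries were made from monolayers fixed with 1% formaldehyde for 10 min, and the TAF3 antibody was a polyclonal antiserum. After duplicate removal the antibody libraries held 12560129 to 17411155 tags and the input 19185386. With 1 library per antibody there is no replicate error, and the exact Poisson 95% intervals given with tag counts cover counting only.

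As background, TAF3 is a subunit of TFIID, the general factor that recognises core promoters and starts assembly of the preinitiation complex, and its PHD finger binds H3K4me3. The hnRNP proteins coat nascent transcripts and often hold splice sites back from use, whereas SR proteins bind exonic enhancers and recruit the splicing machinery. Both families are abundant in the nucleus, and SR protein genes are known to limit their own output through poison exons.

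Promoter sequence was at hand for 7 of the 9 genes, in 10 windows that run from 250 bases before to 50 bases after a RefSeq start on GRCh38.p14. HNRNPH3 has 3 such starts, HNRNPK has 2, and HNRNPA1 and SRSF2 have no entry. The peaks are on hg19, so these windows were not laid over them. The windows had a median of 29 CpG and 63.8% GC, compared with 14 CpG and 58.7% GC over all 35116 windows. HNRNPC had the fewest CpG (15) and the lowest GC content (49.3%), and HNRNPU the most CpG (40).

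Of 8 motifs searched on both strands, the 10-base palindrome of the type bound by ZBTB33 was the scarcest in all windows, at 0.424%, and occurred in 2 of the 10 windows, at HNRNPK and HNRNPH3. It stands in capitals in these lines, with 10 bases on each side, and begins 57 bases before the first HNRNPK start and 83 bases before the second HNRNPH3 start.
HNRNPK, GRCh38.p14 chr9:83980653-83980682, minus strand: agttgttagaTCTCGCGAGAggttcgcccc
HNRNPH3, GRCh38.p14 chr10:68331971-68332000, plus strand: gactttcccgTCTCGCGAGAgtggggccgg

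A TATAAA sequence, the TATA box, lay 30 bases before the SRSF3 start. It was in 2 of the 10 windows, the other 184 bases before the HNRNPC start, and in 11.5% of all windows. CCAAT was found in 6 windows (34.6% of all) and the GC box GGGCGG in 5 (45.0% of all). The ETS core CCGGAA (17.2% of all windows), the YY1 motif AAGATGGC (2.89%), the NRF1 motif (2.75%) and the cAMP response element TGACGTCA (1.85%) were found in 0 of the 10. The 150 bases before the start are printed for 3 genes that differ in make-up, with motif letters in capitals. SRSF3 has the TATA box and CCAAT on either strand, HNRNPC has CCAAT on either strand with 1 GC box, and the stretch before the first HNRNPH3 start has GC boxes alone.
SRSF3, GRCh38.p14 chr6:36594212-36594361, plus strand: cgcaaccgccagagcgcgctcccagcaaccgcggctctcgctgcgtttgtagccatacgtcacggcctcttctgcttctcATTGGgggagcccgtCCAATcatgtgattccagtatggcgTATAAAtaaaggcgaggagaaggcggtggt
HNRNPC, GRCh38.p14 chr14:21269443-21269592, minus strand: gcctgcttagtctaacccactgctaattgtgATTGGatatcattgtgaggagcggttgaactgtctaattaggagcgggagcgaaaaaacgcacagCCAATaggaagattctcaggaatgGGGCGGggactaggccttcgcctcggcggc
HNRNPH3, first start, GRCh38.p14 chr10:68331543-68331692, plus strand: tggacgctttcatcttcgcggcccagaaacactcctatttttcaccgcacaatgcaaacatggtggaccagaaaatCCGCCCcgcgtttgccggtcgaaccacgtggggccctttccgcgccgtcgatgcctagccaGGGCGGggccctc

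In the RefSeq tables, 5 of the 9 genes have a neighbour on the other strand whose start lies within 2 kb. These are PBLD beside HNRNPH3, CBX5 beside HNRNPA1, CBX3 beside HNRNPA2B1, RMI1 beside HNRNPK and MFSD11 beside SRSF2. A peak at these 5 places cannot be assigned to 1 of the genes of a pair. CBX3 and CBX5 encode heterochromatin protein 1 family members. HNRNPU, HNRNPC, SRSF1 and SRSF3 have no such neighbour in the promoter table. Only strand and distance were checked. The share of all genes with such a neighbour was not computed, so the count of 5 has no background here.

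Each of the 9 genes carried exactly 1 TAF3 peak, at its 5′ end, and there it overlapped a peak of H3K4me3 and one of RNAPII. Peak positions are given on hg19, counted from 1. All 9 TAF3 peaks passed the authors' filter of fold enrichment above 5 and false discovery rate below 5%, which 65.8% of the full TAF3 list passed. Fold enrichment is the authors' own ratio of summit tags to local input background. A filtered H3K4me3 peak was present at 9 of 9 genes (79.5% of the full list passed), and a filtered RNAPII peak at 9 of 9 (40.7%). Overlap of a TAF3 peak with both partners, found at 9 of 9 genes, was also found at 97.6% of all filtered TAF3 peaks, so it does not set these genes apart.

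HNRNPH3, a member of the hnRNP H/F family that binds G-rich RNA, had the highest TAF3 fold enrichment of the whole list. Its TAF3 peak at chr10:70090897-70093181 held 1067 tags (95% interval 1004 to 1133) at 223.8-fold. RNAPII there reached 243.3-fold with 1056 tags, above 99.4% of filtered RNAPII peaks. H3K4me3 stood lower in its own list, at 175.4-fold with 1502 tags, above 77.3% of filtered H3K4me3 peaks.

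SRSF2, long known as SC35 and a marker of nuclear speckles, came next for TAF3 among the 9. Its TAF3 peak at chr17:74731580-74734448 held 965 tags (905 to 1028) at 136.9-fold, rank 58 of 11765. It had the highest H3K4me3 fold of the 9 genes, 221.5 with 2575 tags, and an RNAPII fold of 205.4 with 2917 tags. By fold, 92.4% of H3K4me3 peaks lay below SRSF2 and 77.3% below HNRNPH3. By H3K4me3 tags the shares were 99.8% and 93.7%, and by tags per bp 99.2% and 89.0%, so both genes then lie in the upper 20%.

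HNRNPA2B1 encodes a close relative of HNRNPA1, and its peaks were the widest at a 5′ end for TAF3 and H3K4me3. TAF3 at chr7:26238537-26242625 spanned 4089 bp with 921 tags (862 to 982) at 100.2-fold. H3K4me3 spanned 6284 bp with 2712 tags, more than at the other 8 genes, at 168.2-fold, and RNAPII reached 202.8-fold with 1416 tags. SRSF3, the smallest SR protein, had a narrower TAF3 peak at chr6:36561256-36563190 with 357 tags (321 to 396) at 91.8-fold. Its H3K4me3 peak held 1200 tags at 184.1-fold and its RNAPII peak 895 tags at 176.4-fold.

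HNRNPC, which binds uridine tracts and packages nascent RNA, had the fewest tags of the 9 in every 5′ peak and still a high fold enrichment. TAF3 at chr14:21736910-21738497 held 251 tags (221 to 284) at 70.4-fold. H3K4me3 held 880 tags at 210.6-fold, and RNAPII 275 tags at 133.8-fold in a peak of 893 bp. HNRNPU, also known as scaffold attachment factor A, had 660 TAF3 tags (611 to 712) at 59.3-fold at chr1:245025758-245028533. Its H3K4me3 peak held 1728 tags at 140.1-fold and its RNAPII peak 1069 tags at 133.6-fold.

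HNRNPA1, a shuttling hnRNP that often represses exon inclusion, HNRNPK, which binds C-rich RNA through KH domains, and SRSF1, the founding SR protein, had the lowest TAF3 folds of the 9. HNRNPA1 had 703 TAF3 tags (652 to 757) at 51.9-fold at chr12:54672930-54675815, with 166.7-fold for H3K4me3 and 118.3-fold for RNAPII. HNRNPK had 683 TAF3 tags (633 to 736) at 46.6-fold at chr9:86593764-86596680, with 100.1-fold for H3K4me3 and 91.8-fold for RNAPII. SRSF1 had 763 TAF3 tags (710 to 819) at 38.8-fold at chr17:56082693-56085629, with 68.4-fold for H3K4me3 and 62.1-fold for the RNAPII peak at the 5′ end. For HNRNPK and SRSF1 the H3K4me3 fold lay under the list's median of 126.1.

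**Figure D1:**
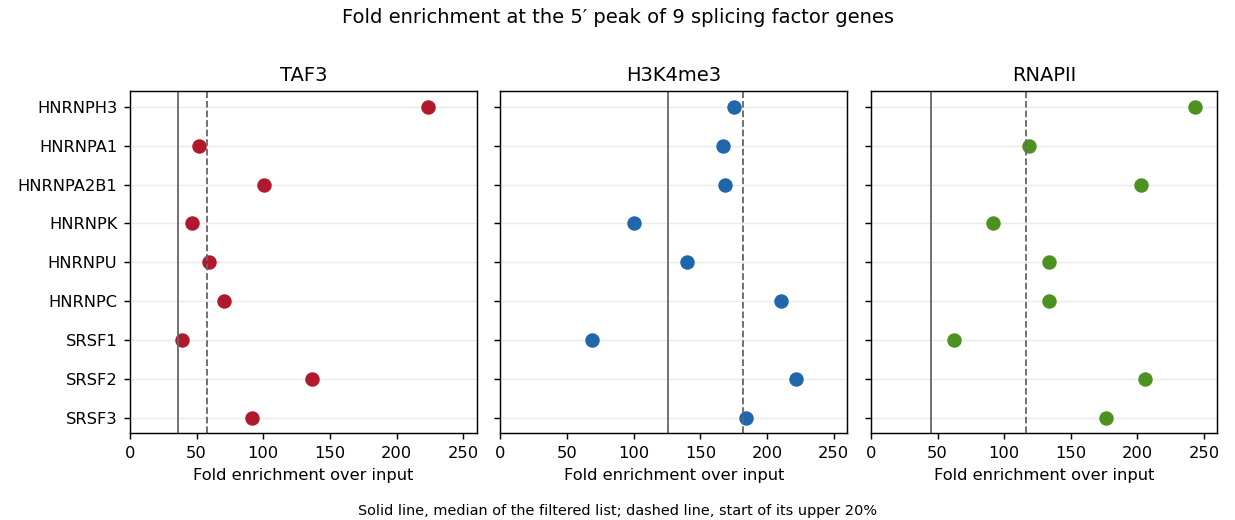
Fold enrichment over input (authors' values, linear axis) of the peak at the 5′ end of each gene, 1 point per gene and antibody from 1 library each. HNRNPH3 stands alone at 223.8-fold for TAF3, all 9 genes lie right of the TAF3 and RNAPII medians (solid lines), and HNRNPK and SRSF1 lie left of the H3K4me3 median.

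Against the whole lists, the 9 genes were placed high for TAF3 and RNAPII and less so for H3K4me3. The median TAF3 fold was 70.4 over the 9 genes and 36.1 over the filtered list. It was 133.8 against 44.8 for RNAPII (the strongest RNAPII peak of each gene) and 168.2 against 126.1 for H3K4me3. The upper 20% of each list by fold, 20% of peaks by construction, held 6 of the 9 genes for TAF3, 7 for RNAPII and 3 for H3K4me3. By tags, the upper 20% (19.9% of TAF3, 20% of H3K4me3 and 20% of RNAPII peaks, given ties) held 8 genes for each antibody, all but HNRNPC. The choice of HNRNPH3 for its TAF3 peak is part of the TAF3 count. For RNAPII the strongest of 1 to 19 filtered peaks stands for a gene, and the list includes weak peaks away from 5′ ends. The 7 genes therefore cannot be read against 20%, nor the median of 133.8 against 44.8. With the RNAPII peak that overlaps TAF3 the count was also 7. It is ranked against the same list, so the weak peaks still limit that count.

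Fold enrichment and tag density placed some of the genes very differently. SRSF1 was above 55.1% of TAF3 peaks by fold and above 98.3% by tags per bp. For H3K4me3 it was above 21.2% by fold and 97.8% by tags per bp, and for its 5′ RNAPII peak above 57.5% and 93.6%. HNRNPK showed the same split, with 35.3% by fold and 95.5% by tags per bp for H3K4me3. HNRNPC was the other way round for TAF3, above 88.3% by fold and 76.0% by tags per bp.

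The tags per bp behind each unit of fold measure this split. Relative to the median of each list, SRSF1 had a quotient of 2.10 (TAF3), 3.44 (H3K4me3) and 1.805 (RNAPII). At HNRNPK it was 1.58, 2.19 and 1.23, and at HNRNPC 0.71, 0.83 and 0.80. All 3 folds at a gene are divided by the same input library. The input level at these places is not in the peak lists, and its part in the split was not tested. Ordered by tags, the 9 genes form a sequence in which only 3 neighbouring pairs of counting intervals stay apart: HNRNPA2B1 (921) above SRSF1 (763), HNRNPU (660) above SRSF3 (357), and SRSF3 above HNRNPC (251). The intervals overlap between neighbours among HNRNPH3, SRSF2 and HNRNPA2B1 and among SRSF1, HNRNPA1, HNRNPK and HNRNPU, which does not show that their counts are alike.

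**Figure D2:**
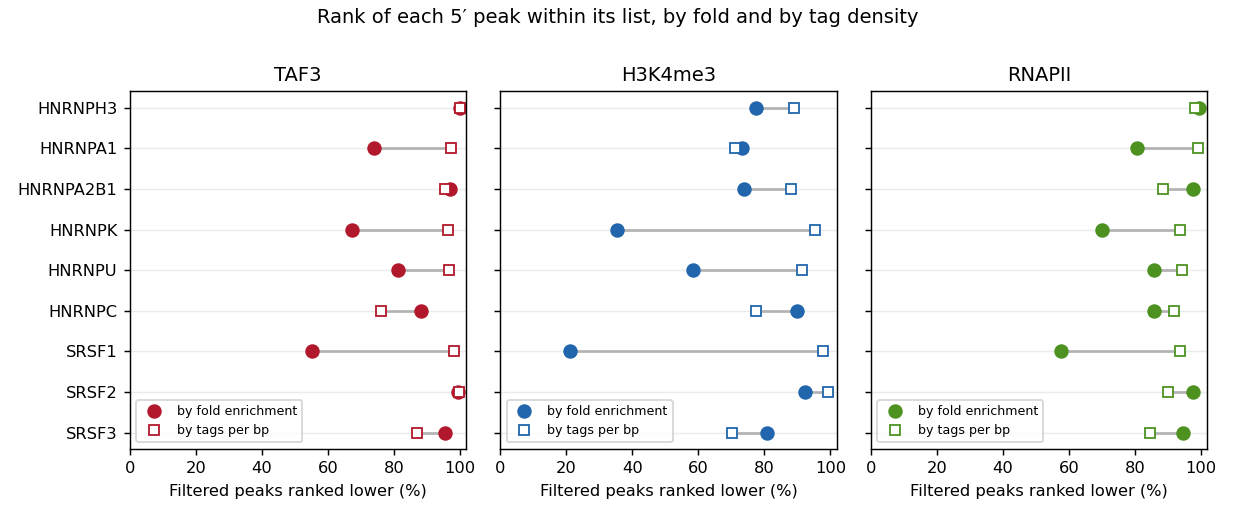
Percent of filtered peaks that rank below the 5′ peak of each gene, by fold enrichment (filled circles) and by tags per bp (open squares), 1 panel per antibody. The longest line joins the H3K4me3 values of SRSF1, 21.2% by fold and 97.8% by tags per bp.

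HNRNPH3 also had the most TAF3 relative to the other antibodies. TAF3 tags per H3K4me3 tag at overlapping peaks came to 0.71 at HNRNPH3, higher than at 96.9% of the 11484 TAF3 peaks with both partners. At the other 8 genes this quotient ran from 0.29 at HNRNPC to 0.44 at SRSF1, with a median of 0.25 over all such peaks (quartiles 0.19 and 0.34). TAF3 tags per RNAPII tag were 1.01 at HNRNPH3 and 0.91 at HNRNPC, and 0.33 at SRSF2, with a median of 0.45 over all such peaks. The quotients are not scaled to depth, and the low value at SRSF2 comes with an RNAPII peak of 9907 bp that runs through the whole gene. At HNRNPC a second filtered RNAPII peak (88 tags, 70.8-fold) also overlapped the TAF3 peak. Its tags are not in the quotient, which would be lower with them. No counting interval was computed for the quotients, so the order of HNRNPH3 and HNRNPC for RNAPII is not settled.

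The 3 antibodies differed in how far their peaks ran along the genes. TAF3 and H3K4me3 peaks lay at the 5′ end. There the TAF3 peak lay wholly inside the H3K4me3 peak at 8 of 9 genes (83.8% of all TAF3 peaks with both partners). HNRNPC was the exception, where a further H3K4me3 peak of 30 tags and 21.2-fold on the far side, at chr14:21738042-21738736, was left out by the authors' filter. The TAF3 peak was 58.8% (SRSF3) to 89.1% (SRSF1) as wide as the H3K4me3 peak. Filtered TAF3 peaks covered a median of 18.2% of the gene span and H3K4me3 peaks 25.6%, whereas RNAPII peaks covered 90.6%. TAF3 cover ran from 1.79% of HNRNPC to 47.4% of SRSF2, and H3K4me3 cover from 3.72% to 76.7% of the same genes. The span of SRSF2, 3 kb, is the shortest, so there the H3K4me3 peak lay over most of the gene. RNAPII cover ran from 27.8% of HNRNPH3 to 98.2% of SRSF1 and 100% of SRSF2. With the full RNAPII list the lowest cover was that of HNRNPK, 58.1%, followed by HNRNPH3, 60.7%.

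**Figure D3:**
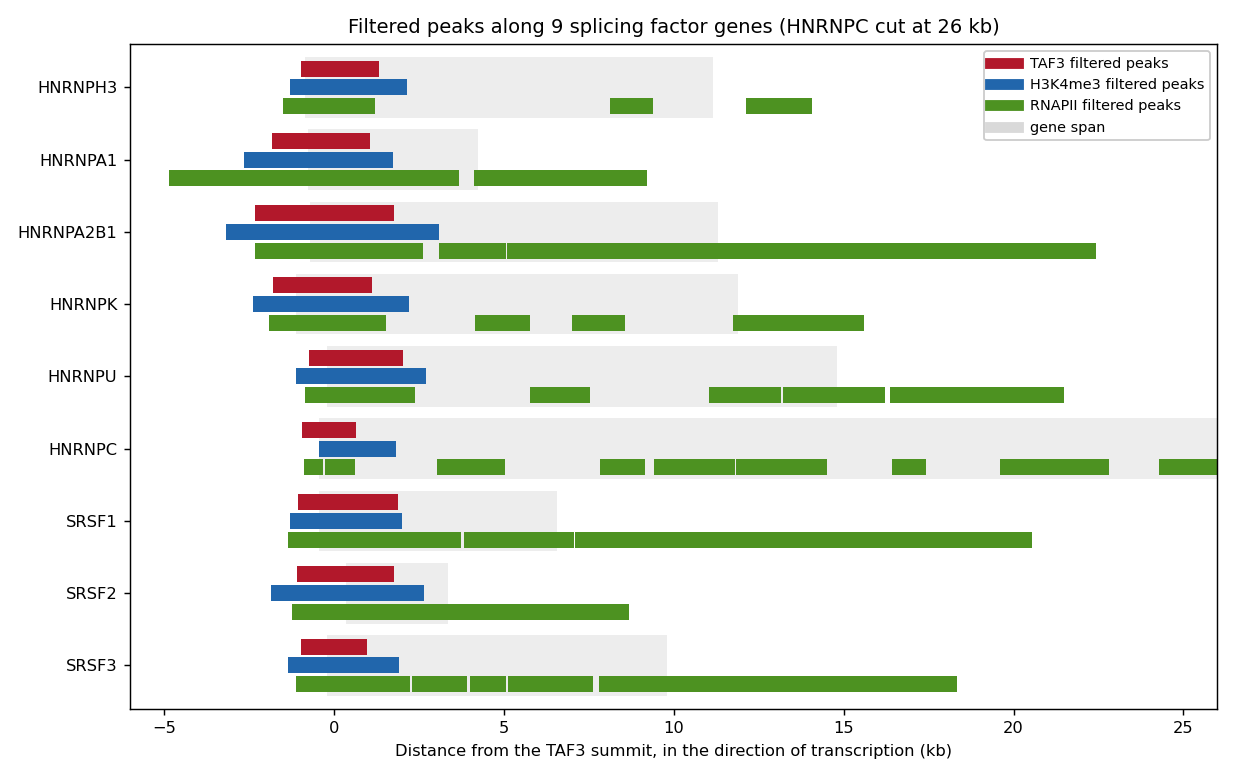
Filtered TAF3, H3K4me3 and RNAPII peaks at each gene, drawn as bars against the distance in kb from the TAF3 summit in the direction of transcription, with the gene span in grey (HNRNPC, whose span is 61 kb, is cut at 26 kb). TAF3 and H3K4me3 bars sit together at the left end, and RNAPII bars, in part with gaps between them, reach past the end of the span at every gene drawn whole.

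TAF3 and RNAPII summits lay almost on top of each other at most of the genes. The distance was 1 bp at HNRNPC, 9 bp at HNRNPH3, 10 bp at SRSF1, 23 bp at HNRNPA2B1, 36 bp at SRSF2, 38 bp at HNRNPU and 48 bp at SRSF3. That is 7 of 9 genes within 50 bp, compared with 54.3% of all TAF3 peaks with both partners. At HNRNPK the RNAPII summit lay 218 bp upstream of the TAF3 summit. At HNRNPA1 it lay 1297 bp upstream, a distance of 1000 bp or more that 3.11% of all such TAF3 peaks showed.

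The H3K4me3 summit lay downstream of the TAF3 summit, into the gene, at 8 of 9 genes. The offset was 104 bp at HNRNPA2B1, 127 bp at HNRNPK, 164 bp at HNRNPH3 and 257 bp at SRSF1. It was 283 bp at HNRNPC, 310 bp at SRSF2, 375 bp at HNRNPU and 657 bp at SRSF3. None of the 9 had an H3K4me3 summit within 50 bp of TAF3, which 7.47% of all TAF3 peaks with both partners had. No strand is known for the rest of the list, so the direction has no background here.

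HNRNPK was an exception for the RNAPII summit only, and HNRNPA1 for both summits. Its TAF3 summit at 54674763 lay inside the HNRNPA1 span, while the summits of RNAPII (54673466) and H3K4me3 (54673144) lay before the span, on the side of CBX5. A further RNAPII peak at chr12:54669909-54672792 (22.9-fold, 176 tags) continued in that direction. The H3K4me3 peak reached 2645 bp upstream and 1748 bp downstream of the TAF3 summit. At 6 of the 9 genes it reached farther downstream than upstream, the others being HNRNPA2B1 (3102 bp downstream and 3181 upstream) and HNRNPK (2216 and 2380). All 3 genes with the longer upstream side have a neighbour that starts on the other strand, as do HNRNPH3 and SRSF2, where the downstream side was the longer.

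**Figure D4:**
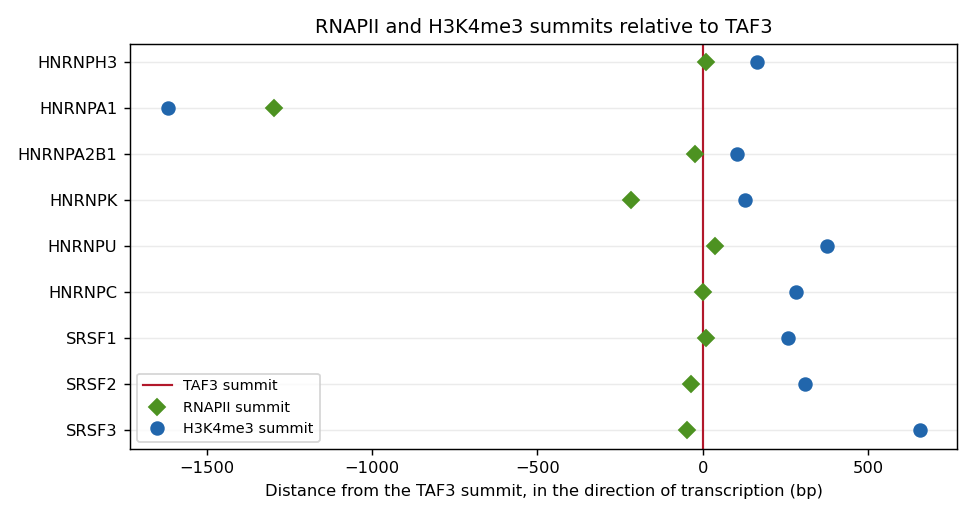
Position of the RNAPII summit (diamonds) and H3K4me3 summit (circles) of each gene in bp from its TAF3 summit (line at 0), positive in the direction of transcription. H3K4me3 circles lie 104 to 657 bp to the right at 8 genes, and both symbols of HNRNPA1 lie over 1000 bp to the left.

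A filtered RNAPII peak reached past the 3′ end of the span at all 9 genes. The filtered peak that reached farthest ended 13.98 kb past it at SRSF1, 11.1 kb at HNRNPA2B1, 10.1 kb at HNRNPC and 8.54 kb at SRSF3. The reach was 6.68 kb at HNRNPU, 5.32 kb at SRSF2, 4.98 kb at HNRNPA1, 3.73 kb at HNRNPK and 2.91 kb at HNRNPH3. Spans are rounded to 1 kb, so these distances are no finer than that. At SRSF1 the RefSeq gene is 18.2 kb long where the span is 7 kb, and at HNRNPA1 6.4 kb where it is 5 kb. Part of that reach may lie within longer gene models. The lengths do not show at which end a model is longer. The peak that reached farthest lay wholly outside the span at HNRNPH3, HNRNPU and SRSF1. Another filtered RNAPII peak crossed the 3′ end of the span at HNRNPU and SRSF1, but none did at HNRNPH3. The share of all genes with RNAPII past the 3′ end was not computed, so the count of 9 genes has no background here.

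Most of these end peaks were wide, but that of HNRNPK spanned 3856 bp and that of HNRNPH3 1925 bp. At 7 of 9 genes an RNAPII peak of 5 kb or more was present, a width that 6.46% of filtered RNAPII peaks had, though a gene with several peaks has more chances than 1 peak. The widest were chr7:26217869-26235209 at HNRNPA2B1 (17341 bp, 3668 tags, 131.3-fold) and chr17:56064020-56077467 at SRSF1 (13448 bp, 2649 tags, 80.7-fold). At SRSF1 that peak had a higher fold than the RNAPII peak at the 5′ end. Its summit lay 12.0 kb past the 3′ end of the SRSF1 span, and that at HNRNPA2B1 6.47 kb past the HNRNPA2B1 span. The other genes had end peaks of 25.1-fold (HNRNPC), 26.7-fold (HNRNPH3), 28.1-fold (HNRNPA1), 31.1-fold (SRSF3), 40.4-fold (HNRNPU) and 47.5-fold (HNRNPK). SRSF2 had a single peak from start to end. Neighbours on the 3′ side of the 9 genes were not looked up, so RNAPII in an end peak cannot be assigned to 1 gene.

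RNAPII tag density was higher in the 5′ peak than in the end peak, the one that reaches farthest past the 3′ end, at all 8 genes with separate peaks. Filtered peaks between them had a lower density still, with counting intervals apart from those of the end peak at 7 of the 8 genes. End peaks are not all flank: 6.21 kb of the 17341 bp at HNRNPA2B1 and 2.004 kb of the 10545 bp at SRSF3 lie within the span, so over that part of these genes the density is that of the end peak. The 5′ peaks held 264.9 tags per kb at SRSF3 to 436.7 at HNRNPA1, with a median of 324.0 against 127.4 over all filtered RNAPII peaks. That list includes weak peaks away from 5′ ends. Peaks between the 5′ and the end peak held 52.7 (HNRNPH3) to 112.0 (HNRNPA1) tags per kb, where the first quartile of the filtered list was 73.0 and its lowest value 35.2. End peaks held 60.8 tags per kb at HNRNPH3 (50.3 to 72.8), where the interval overlaps that of the peak between (40.9 to 66.9), 226.7 at HNRNPA1 and 211.5 at HNRNPA2B1. That was 15.5% of the density of the 5′ peak at HNRNPH3 and 74.1% at HNRNPA2B1, with a median of 40.2%. Densities cover called peaks alone, and the stretches between them are not in the lists.

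**Figure D5:**
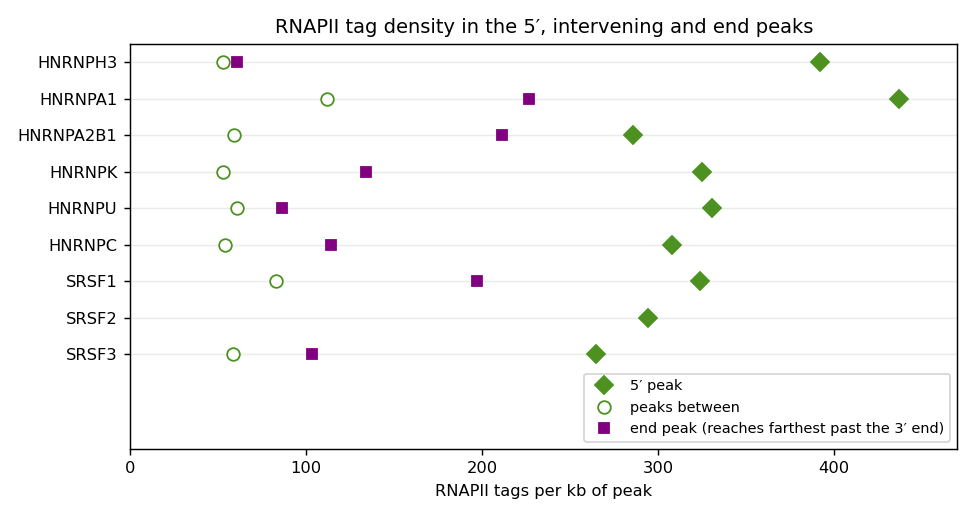
RNAPII tags per kb in the 5′ peak (diamonds), in filtered peaks between the 5′ and the end peak (open circles) and in the peak that reaches farthest past the 3′ end (squares), linear axis from 0. The square lies between the circle and the diamond at the 8 genes with separate peaks, within counting error of the circle at HNRNPH3, and SRSF2, with 1 peak in all, has a diamond alone.

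Of the 94 RNAPII peaks at these genes, 48 passed the authors' filter and 46 did not. Those left out held 10 to 45 tags at 6.29- to 21.4-fold, with false discovery rates from 5.05% to 23.2%. With them, cover rose from 27.8% to 60.7% of HNRNPH3, from 45.8% to 58.1% of HNRNPK, from 53.7% to 76.3% of HNRNPU and from 55.2% to 85.8% of HNRNPC, and it stayed at 90.6% of HNRNPA1. HNRNPC alone had 48 RNAPII peaks in the full list, 19 of them filtered, over its span of 61 kb. At the edge of the 2 kb margin, the last RNAPII peaks taken in lay 1208 bp from the HNRNPA1 span (22.9-fold) and 1567 bp from the HNRNPU span (40.4-fold). The nearest left out lay 2496 bp (18.7-fold) and 2980 bp (17.4-fold) from the HNRNPH3 span.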

How the data were processed

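Per the submitters' processing notes, CASAVA 1.8.2 and MACS 1.4.2 were used on build hg19. The aligner is not given in the sources used here. Each antibody was called against the same input with at most 1 tag kept per position, per the file headers, which bounds the tag count of dense places. Deposited tag counts are whole numbers without scaling for library size. Fold enrichment was deposited as a ratio to local background, the score as minus 10 times log10 of p (3100 where p was too small), and the false discovery rate as a percent. The filtered lists were checked and hold exactly the peaks above 5-fold and below 5%.

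Members and gene and motif lists were chosen with earlier results of these data known. All 9 genes are named, and neighbours that start on the other strand within 2 kb. Each gene is represented by its filtered peak of highest fold. Summits, tag quotients and 5′ RNAPII values use the peak that overlaps TAF3, or the one of highest fold where several overlap it. Overlap means at least 1 bp. Strand came from RefSeq for 7 genes and from textbook knowledge for HNRNPA1 and SRSF2. Other hnRNP and SR genes had no hg19 positions at hand and are not analysed here. Promoter sequences and the gene table are RefSeq's (GRCh38.p14). The software was pandas 2.3.3, scipy 1.17.1, numpy 2.4.6, matplotlib 3.10.9 and Python 3.11.15, and the overlap code passed 7 of 7 checks on simulated data.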

Additional observations from a re-analysis of the deposited data

How the results depend on the processing

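With 1 library per antibody, no replicate could be left out. No paired analysis was possible because each antibody has 1 library. Among 51 values under other settings, 34 changed little by a set rule: shares kept inside a 95% binomial interval and counts of genes kept within 1.5 times. That interval counts the peaks of a list, or the bases of the spans, so it does not measure the spread over the 9 genes. The 34 values include every count of genes with a filtered peak, with all 3 antibodies at 1 place and with summits within 50 bp. The median percent of peaks ranked lower by fold, 88.3% for TAF3, 73.9% for H3K4me3 and 85.8% for RNAPII, became 98.6%, 97.1% and 96.4% by tags. By tags per bp it was 96.8%, 89.0% and 91.8%, and within the full lists 92.3%, 79.2% and 94.2%. By score it was 90.6% for TAF3 and 86.9% for RNAPII. The 3 genes in the upper 20% for H3K4me3 became 8 by tags, 6 by tags per bp and 1 in the upper 10%. The 7 for RNAPII became 4 in the upper 10%. For TAF3 the 6 genes also became 4 there, exactly at the limit of 1.5 times, and this was counted as little change. RNAPII cover of all 9 spans together, 62.7%, was 83.0% with the full list and 64.9% with spans widened by 2 kb. The cause of these moves was not tested, apart from the full lists and the narrower upper share, which change the peaks counted by construction.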
